A study of Homo sapiens with 8 samples.

Results

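Described here are 10 genes of the BCL2 family of apoptosis regulators, without BAX, BBC3 and PMAIP1, its best known targets of p53: BCL2L1, BCL2L2, MCL1, BAK1, BOK, BID, BCL2L11, BAD, BIK and BMF. They were taken by symbol from a table of 58735 genes, each symbol matched 1 row, and all 10 had a mean of at least 1 FPKM (fragments per kilobase of gene length, scaled to library size), the level above which 11620 genes were tested. RNA was sequenced from 8 libraries of HepG2, an established line that the labels call human hepatocellular carcinoma cells, grown in DMEM with 10% fetal bovine serum. The 4 control libraries (genotype WT, library names pLV_EGFP_NC) came from cells given a control lentivirus, and the 4 DNMT3A libraries (genotype DNMT3A overexpression, library names pLV_EGFP_DN) from cells given a lentivirus that overexpresses DNMT3A, an enzyme that methylates DNA de novo. Both groups carry a lentiviral vector. The labels used here do not give the promoter of the transgene, the time since infection, or whether the cells were a clone or a pool.

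Proteins of this family decide whether the outer mitochondrial membrane stays closed. The pro-survival members BCL-XL (BCL2L1), BCL-w (BCL2L2) and MCL1 hold back pore-forming effectors such as BAK (BAK1). BOK, another effector, is also described here. The BH3-only members BID, BIM (BCL2L11), BAD, BIK and BMF bind the pro-survival proteins or activate effectors. Once effectors permeabilise the membrane, cytochrome c reaches APAF1 in the cytosol and caspases are activated. In hepatocytes BCL-XL and MCL1 are the best known survival factors.

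All members share the short BH3 domain, and its coding sequence is shown because it defines the family and shows how far its genes differ at the level of the bases that sequencing reads. Each line gives 30 bases of the GENCODE release 29 principal transcript (GRCh38), 5′ to 3′ on the coding strand. They start at the leucine or methionine codon of the domain's core, and the capitals mark the codons of the small residue and the aspartate at its centre.
BCL2L1, chr20:31721922-31721951, minus strand: ctgagggaggcaGGCGACgagtttgaactg
BCL2L2, chr14:23307903-23307932, plus strand: atgcgggcagctGGAGATgagttcgagacc
MCL1, chr1:150578865-150578894, minus strand: ttacgacgggttGGGGATggcgtgcagcgc
BAK1, chr6:33575387-33575416, minus strand: ctcgccatcatcGGGGACgacatcaaccga
BOK, chr2:241559691-241562364 across an exon junction, plus strand: ctgctgcgcctgGGCGATgagctggagatg
BID, chr22:17739415-17739444, minus strand: ctcgcccaggtcGGGGACagcatggaccgt
BCL2L11, chr2:111150103-111150132, plus strand: ttgcggcgtattGGAGACgagtttaacgct
BAD, chr11:64271622-64271651, minus strand: ctccggaggatgAGTGACgagtttgtggac
BIK, chr22:43127716-43127745, plus strand: ctggcctgcatcGGGGACgagatggacgtg
BMF, chr15:40104195-40104224, minus strand: cttcagtgcattGCAGACcagttccaccgg
Over the 45 pairs of members these stretches matched at 9 to 21 of 30 positions, with a median of 15. No pair of members shared an exact stretch longer than 17 bases anywhere in their annotated transcripts. Of the 10 stretches only that of BCL2L2 occurred in transcripts of another gene, the readthrough gene BCL2L2-PABPN1.

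The libraries held 15911019 to 17677093 reads, recovered from the FPKM and gene length. DNMT3A was at 3.45 to 3.89 FPKM in controls, against 7.26 to 10.2 FPKM in DNMT3A libraries and was higher in each DNMT3A library than in any control. Of the hepatocyte markers, 10 of 10 had a mean of at least 1 FPKM, and their summed level was 10700 to 11200 FPKM in controls, against 9840 to 12700 FPKM in DNMT3A libraries. ALB was the largest part of this sum (mean 6220 FPKM), which hides the spread of single markers. Over all libraries AFP ran from 358 to 1270 FPKM, FGB from 32.5 to 115 and TTR from 5.14 to 18.7. Others varied less, such as SERPINA1 (665 to 851 FPKM) and HNF4A (29.4 to 42.3). Of 7 fibroblast and 4 endothelial markers 0 reached a mean of 1 FPKM. Of 5 blood markers 1 did, LYZ (lysozyme), at 234 ± 32.6 against 325 ± 13.9 FPKM (SD, n = 4); PTPRC, HBB and CD3E were listed at 0 in every library. LYZ is named after its values were seen; it rose (log2 0.48, limma adjusted p = 0.00812), and its part in the results was not tested. Fold changes below are DNMT3A minus control in log2(FPKM + 1), a scale that understates the change of low genes, and adjusted p comes from limma with Benjamini-Hochberg adjustment over all 11620 genes. The exact permutation test is two-sided over 70 assignments, and the smallest p it can give is 0.0286.

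Of the 10 members 2 passed the threshold, both higher and both pro-survival, 0 were lower and 8 did not pass. That is 20% of the members, against 20.6% of all tested genes (9.93% higher and 10.6% lower), so the members as a group were called about as often as any other genes. Their median log2 difference was 0.10, against -0.01 over all tested genes. Without BCL2L2, whose surroundings are described below, 1 of 9 members was called (11.1%) and the median was 0.06. With FPKM rescaled to the recovered read totals the same number of members was called, while over all genes the split turned from 1154 higher and 1235 lower to 1318 higher and 1031 lower. The groups did not overlap for 3 members (BCL2L2, MCL1 and BAK1, all higher), where 12.1% of tested genes had every DNMT3A library above every control and 13.0% every one below.

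**Figure D1:**
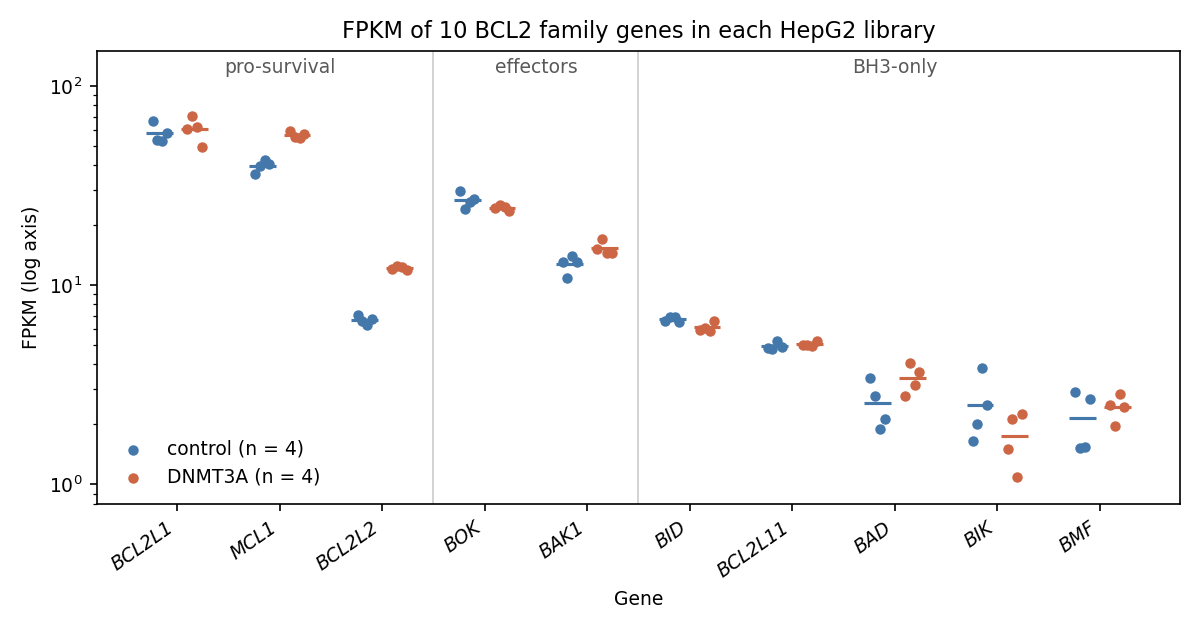
FPKM (log axis) of the 10 genes, ordered by role, with 1 point per library and a line at the mean of each group of 4. BCL2L2 and MCL1 stand apart between the groups, BAK1 only just, and the points of the other 7 genes overlap.

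BCL2L2 encodes BCL-w, a pro-survival protein known for its role in sperm production. Its level was 7.10, 6.57, 6.32 and 6.78 FPKM in control libraries 1 to 4 and 12.03, 12.5, 12.3 and 11.9 FPKM in DNMT3A libraries 1 to 4. The lowest DNMT3A library lay far above the highest control, and each group was narrow. The means were 6.69 ± 0.332 and 12.2 ± 0.277 FPKM (SD, n = 4), a ratio of 1.82. Its log2 difference was 0.78 (SE 0.052, 95% interval 0.66 to 0.89; limma adjusted p = 3.71e-05; exact permutation p = 0.0286). These values rest on 419 to 500 reads per control library and 878 to 962 reads per DNMT3A library. In bulk RNA a change in the share of cells that express a gene and a change of RNA per cell cannot be told apart.

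MCL1 encodes a short-lived pro-survival protein whose amount follows its synthesis closely. Its level was 36.1, 39.7, 42.5 and 40.4 FPKM in control libraries 1 to 4 and 59.3, 55.2, 55.0 and 57.0 FPKM in DNMT3A libraries 1 to 4. Again every DNMT3A library was above every control. Its means were 39.7 ± 2.67 and 56.6 ± 1.97 FPKM (SD, n = 4), a ratio of 1.43. The log2 difference was 0.50 (SE 0.060, 95% interval 0.37 to 0.64; limma adjusted p = 0.000747; exact permutation p = 0.0286), and 3.10% of tested genes had a larger one. It rests on 2511 to 3111 reads per control library and 4181 to 4524 per DNMT3A library.

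BCL2L1 (ENSG00000171552, chromosome 20, 31664452 to 31723989, minus strand) encodes BCL-X, whose long splice form BCL-XL protects cells and whose short form does not; gene-level FPKM does not separate them. Its level was 66.9, 53.8, 52.9 and 58.0 FPKM in control libraries 1 to 4 and 60.7, 70.6, 61.9 and 49.3 FPKM in DNMT3A libraries 1 to 4. The highest and the lowest of the 8 values both belonged to DNMT3A libraries, and the groups overlapped throughout. Its log2 difference was 0.06 (95% interval -0.19 to 0.31; limma adjusted p = 0.731; exact permutation p = 0.686). Without DNMT3A library 2 the difference was -0.015 (limma adjusted p = 0.932).

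**Figure D2:**
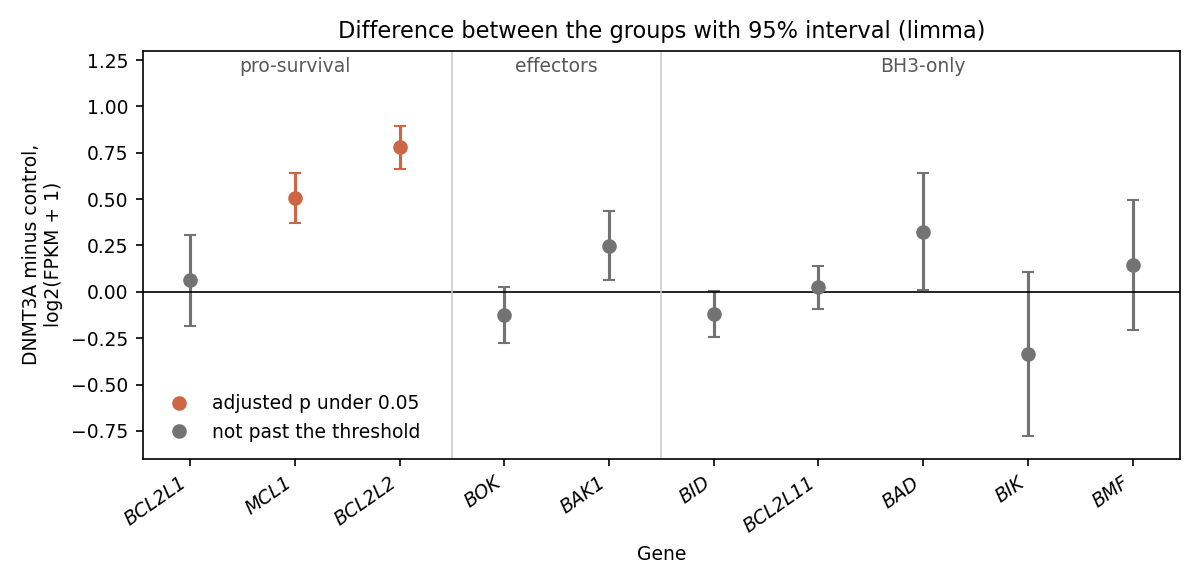
Difference between the groups in log2(FPKM + 1) for each gene, with the 95% interval of limma; coloured points passed an adjusted p of 0.05. The intervals of BCL2L2 (0.66 to 0.89) and MCL1 (0.37 to 0.64) lie well above 0, and that of BIK (-0.78 to 0.11) is the widest.

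BCL2L2 (ENSG00000129473, hg38 chromosome 14, 23298790 to 23311759, plus strand) starts in a part of chromosome 14, from 20 to 45 Mb, whose genes were raised as a block in the DNMT3A libraries; the bounds of the block were chosen on these data, so it is described without a test. Of the 113 other tested genes there, 87 were higher, 0 were lower and the median log2 difference was 0.49 (quartiles 0.34 and 0.64). With 0.78, BCL2L2 lay above the upper quartile, and 13 of the 113 had a larger difference. Relative to the control mean, BCL2L2 deviated by 0.76, 0.82, 0.79 and 0.75 log2 units in DNMT3A libraries 1 to 4, and the median of the other block genes by 0.45, 0.46, 0.52 and 0.53. BCL2L2 thus exceeded the block median in each DNMT3A library, by 0.31, 0.36, 0.27 and 0.22. In the controls it differed from it by -0.08 to 0.09, which shows only their spread, because deviations were taken from the control mean. Whether BCL2L2 moved for any reason apart from the block cannot be told apart with these libraries.

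Ordered by lower genome coordinate, the tested genes next to BCL2L2 on either side were higher as well. That coordinate is the 3′ end of a gene on the minus strand, and all distances between genes here use it. PPP1R3E, which encodes a regulatory subunit of protein phosphatase 1, lies on the minus strand from 23295643 to 23302848. Its own start thus falls inside BCL2L2. PPP1R3E rose with a log2 difference of 0.40 (limma adjusted p = 0.0144, and 0.0528 without a filter), with 2.41 ± 0.251 against 3.52 ± 0.495 FPKM (SD, n = 4). PABPN1, a nuclear poly(A) binding protein whose gene starts 22.5 kb after the start of BCL2L2, rose by 0.77 (limma adjusted p = 0.0011), from 10.1 ± 1.04 to 17.99 ± 2.54 FPKM (SD, n = 4). HOMEZ, a homeobox gene, lies on the minus strand from 23272422 to 23299447, so its own start falls just inside BCL2L2. HOMEZ had a log2 difference of 0.19 and did not pass (limma adjusted p = 0.0506), although its groups did not overlap. It passed under 5 of 17 alternatives (limma adjusted p 0.0247 to 0.0467). Farther out, ACIN1 (log2 0.57), C14orf119 (0.52), NGDN (0.64), AP1G2 (0.53) and DHRS2 (0.70) passed, and AL132780.4 (0.41), whose coding status the annotation leaves undetermined, and the long non-coding RNA AL135999.3 (0.20) did not. Within 1 Mb of BCL2L2, 36 of 43 other tested genes were higher and 0 lower.

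The surroundings of MCL1 (ENSG00000143384, hg38 chromosome 1, 150574551 to 150579738, minus strand) did not look like this. Within 1 Mb of it 6 of 36 other tested genes were higher and 3 lower, with a median log2 difference of 0.06. Around the 8 remaining members the medians ran from -0.12 (BIK) to 0.11 (BCL2L1), with 0 to 4 genes higher and 0 to 7 lower of 7 to 49 tested. No other member lies in the chromosome 14 block.

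**Figure D3:**
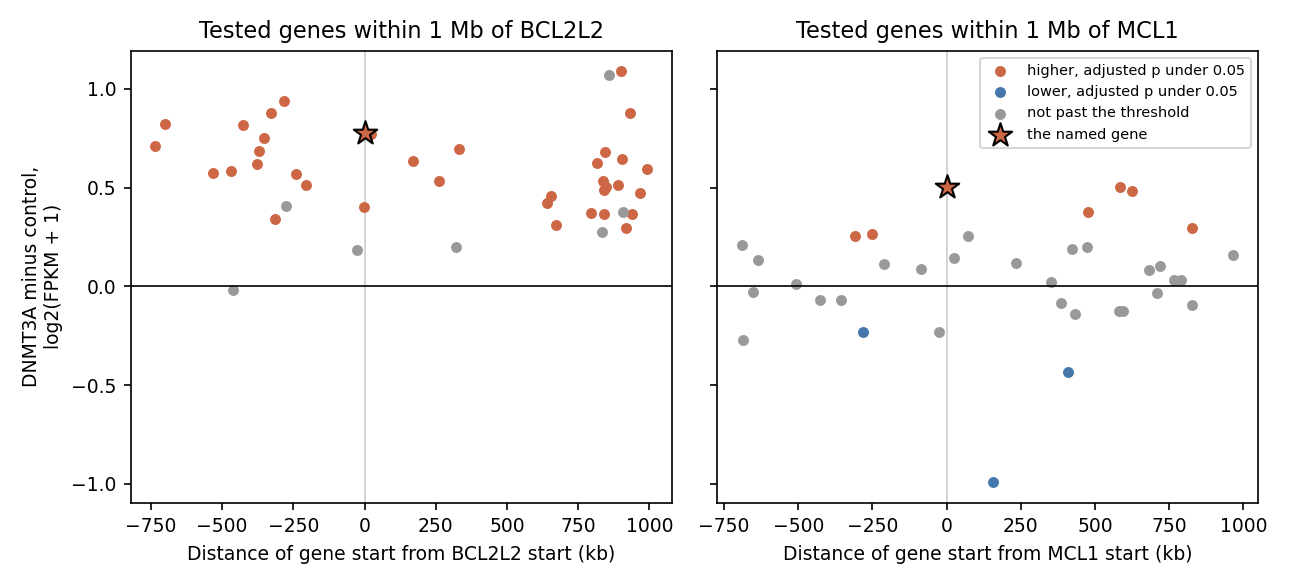
Log2 difference of every tested gene against the distance of its lower genome coordinate from that of BCL2L2 (left) or MCL1 (right), within 1 Mb. The axes call this coordinate the start, but it is the 3′ end of genes on the minus strand. Stars mark the named genes. Around BCL2L2 36 of 43 genes were higher and 0 lower, around MCL1 6 of 36 were higher and 3 lower.

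Some members share exons with other genes, and the labels' protocol names no step that marks strand, so reads from shared bases cannot be assigned by strand. BCL2L2 shares 813 of its 4189 exon bases (19.4%) with the readthrough gene BCL2L2-PABPN1, which was listed with 2 to 11 reads per library, at 0.0751 to 0.367 FPKM in controls, against 0.141 to 0.404 FPKM in DNMT3A libraries. No source used here says how reads in the shared part were counted. Another 206 bases (4.92%) lie opposite PPP1R3E. BCL2L1 lies opposite the antisense RNA ABALON over 1424 bases (43.0% of its exons); ABALON was at 3.01 ± 0.887 FPKM in controls, against 3.81 ± 0.899 FPKM in DNMT3A libraries (SD, n = 4), a small amount beside BCL2L1. BAD lies opposite GPR137 over 404 bases (23.7%), and there the antisense neighbour is the more abundant gene, with 6.99 ± 0.173 against 6.59 ± 0.445 FPKM (SD, n = 4). BCL2L11 lies opposite MIR4435-2HG over 727 bases (10.9%). MCL1 shared 2 bases with a gene at 0.0218 to 0.133 FPKM, and BID and BIK shared no exon base with any annotated gene.

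Of the effectors, BAK1 (ENSG00000030110, chromosome 6, 33572547 to 33580293, minus strand) encodes BAK, which sits in the outer mitochondrial membrane and oligomerises into pores. Its level was 13.1, 10.8, 14.1 and 13.0 FPKM in control libraries 1 to 4 and 15.1, 17.0, 14.5 and 14.6 FPKM in DNMT3A libraries 1 to 4. The groups did not overlap, but control library 3 and DNMT3A library 3 were close, and DNMT3A library 2 was the highest. BAK1 had a log2 difference of 0.25 (SE 0.083, 95% interval 0.06 to 0.43; exact permutation p = 0.0286) and it missed the threshold (limma adjusted p = 0.0607). BAK1 passed with quantile normalization (limma adjusted p = 0.0473) and with voom on recovered reads (0.048), and over its 18 alternatives the adjusted p ran from 0.0473 to 0.148.

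BOK (ENSG00000176720, chromosome 2, 241551424 to 241574138, plus strand) encodes an effector kept low by rapid degradation of the protein. It was at 29.7, 23.98, 26.3 and 27.2 FPKM in control libraries 1 to 4 and at 24.3, 25.3, 24.7 and 23.4 FPKM in DNMT3A libraries 1 to 4. The groups overlapped, with 1 control inside the range of the DNMT3A libraries. The log2 difference was -0.12 (SE 0.067, 95% interval -0.27 to 0.03; limma adjusted p = 0.216; exact permutation p = 0.114).

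BOK-AS1, an antisense RNA that lies opposite 201 exon bases of BOK (7.41%), fell in the same libraries. It was at 1.77 to 3.05 FPKM in controls, against 0.624 to 0.884 FPKM in DNMT3A libraries, without overlap. The means were 2.52 ± 0.562 and 0.746 ± 0.140 FPKM (SD, n = 4), and the log2 difference was -1.001 (SE 0.124; limma adjusted p = 0.000907), or -1.62 with a pseudocount of 0.1. It rests on 7 to 31 reads per library, against 1117 to 1298 for BOK.

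None of the 5 BH3-only members passed the threshold (0% called, against 20.6% of all tested genes), and 5 genes are too few to set their share against that. BID (ENSG00000015475, chromosome 22, 17734138 to 17774770, minus strand), which caspase 8 cleaves to link death receptors to mitochondria, was at 6.58, 6.90, 6.95 and 6.54 FPKM in control libraries 1 to 4 and 5.94, 6.07, 5.89 and 6.63 FPKM in DNMT3A libraries 1 to 4. DNMT3A libraries 1 to 3 were below every control and DNMT3A library 4 was not. The log2 difference was -0.12 (SE 0.055, 95% interval -0.24 to 0.00283; limma adjusted p = 0.151; exact permutation p = 0.0857). With array weights, which give each library its own weight, BID passed (log2 -0.16, limma adjusted p = 0.0265); over its 18 alternatives the adjusted p ran from 0.0265 to 0.306.

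BCL2L11 (ENSG00000153094, chromosome 2, 111119378 to 111168447, plus strand) encodes BIM, a BH3-only protein that binds all pro-survival members. It had the smallest difference of the 10 genes, with 4.81, 4.77, 5.27 and 4.91 FPKM in control libraries 1 to 4 and 4.98, 5.00, 4.94 and 5.23 FPKM in DNMT3A libraries 1 to 4. All 4 DNMT3A values lay inside the range of the controls. The log2 difference was 0.02 with a 95% interval of -0.09 to 0.14 (limma adjusted p = 0.785; exact permutation p = 0.486).

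BAD (ENSG00000002330, chromosome 11, 64269830 to 64284704, minus strand), which survival kinases inactivate by phosphorylation, was at 3.42, 2.79, 1.89 and 2.13 FPKM in control libraries 1 to 4 and 2.78, 4.06, 3.17 and 3.66 FPKM in DNMT3A libraries 1 to 4. DNMT3A libraries 2 and 4 were above all controls, while DNMT3A libraries 1 and 3 were not. BAD had a log2 difference of 0.32 (95% interval 0.01 to 0.64; limma adjusted p = 0.132; exact permutation p = 0.143), from 51 to 127 reads per library.

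BMF (ENSG00000104081, chromosome 15, 40087890 to 40108892, minus strand), a BH3-only protein held on the actin motor complex, was at 2.89, 1.51, 1.54 and 2.69 FPKM in control libraries 1 to 4 and 2.51, 1.96, 2.83 and 2.45 FPKM in DNMT3A libraries 1 to 4. Control libraries 2 and 3 were low, and control libraries 1 and 4 were as high as the DNMT3A libraries. The log2 difference was 0.15 (95% interval -0.21 to 0.50; limma adjusted p = 0.549; exact permutation p = 0.457). It was 0.045 without control library 2, 0.050 without control 3 and 0.26 without control 1, and did not pass in any of these.

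BIK (ENSG00000100290, chromosome 22, 43110748 to 43129712, plus strand), a BH3-only protein of the endoplasmic reticulum, was at 1.65, 2.01, 3.84 and 2.504 FPKM in control libraries 1 to 4 and 1.503, 2.12, 1.09 and 2.27 FPKM in DNMT3A libraries 1 to 4. Control library 3 was the highest and DNMT3A library 3 the lowest, and the rest overlapped. BIK had a log2 difference of -0.34 (95% interval -0.78 to 0.11; limma adjusted p = 0.255; exact permutation p = 0.229), from 18 to 58 reads per library. With array weights BIK passed (log2 -0.67, limma adjusted p = 0.0276); over its 18 alternatives the adjusted p ran from 0.0276 to 0.549. Without control library 3 its log2 difference was -0.17.

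The spread between libraries was not the same for all members. For BCL2L2, BCL2L11 and BID the SD in the controls was 4.96%, 4.56% and 3.13% of the mean, close to the 4.63%, 4.28% and 4.48% that counting error alone gives for their read numbers. For BCL2L1 it was 11.0% in the controls and 14.4% in the DNMT3A libraries, where counting error gives 1.77% and 1.68%. For BMF the control SD was 34.0% of the mean against 7.14% from counting, but 14.9% against 6.53% in the DNMT3A libraries. BAD (27.0% against 11.7%) and BIK (38.4% against 15.9%) were also wider than counting in the controls. The 2 members that passed the test thus differ in this respect: BCL2L2 varied about as much as counting gives, and MCL1 more (6.73% against 1.86% in the controls, 3.49% against 1.51% in the DNMT3A libraries).

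**Figure D4:**
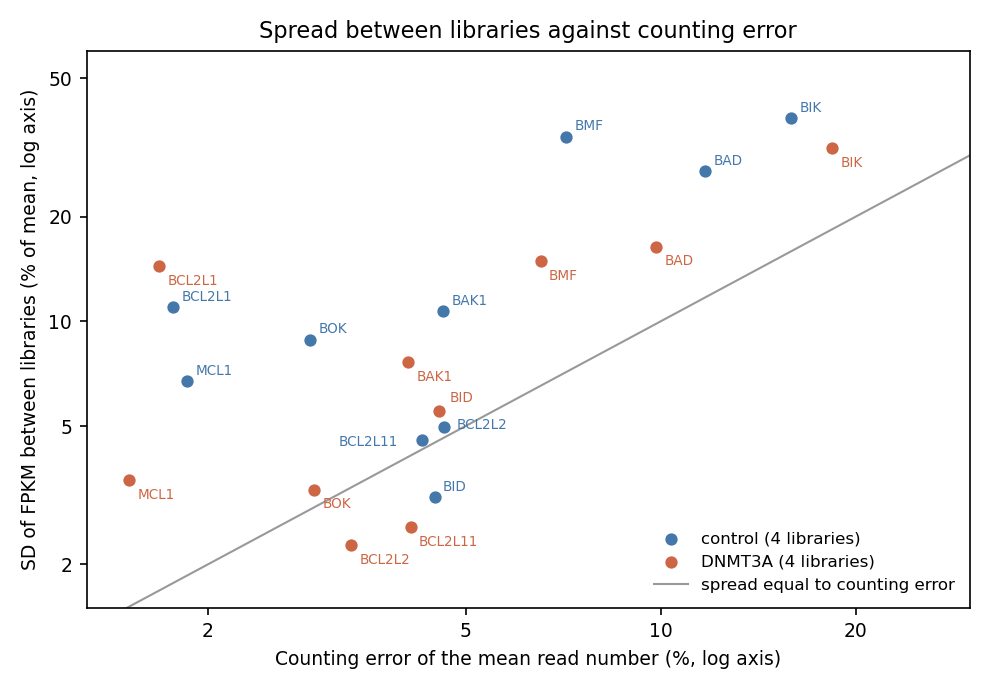
SD of FPKM between the 4 libraries of a group, in percent of the mean, against the counting error of the mean read number, both on log axes, with 1 labelled point per gene and group. BCL2L2, BCL2L11 and BID lie near the line of equality, and BCL2L1 and control BMF (34.0% against 7.14%) lie far above it.

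FPKM is scaled by gene length, so the levels of the members are set side by side here. That length is the union of a gene's annotated exons, from 953 bases (BIK) to 6658 (BCL2L11). Order and sums over members therefore also depend on which exons the transcripts use, which was not tested. In the controls BCL2L1 was highest (57.9 FPKM), followed by MCL1 (39.7), BOK (26.8), BAK1 (12.8), BID (6.74), BCL2L2 (6.69), BCL2L11 (4.94), BAD (2.56), BIK (2.502) and BMF (2.16). Neighbours in this order did not overlap, except BID with BCL2L2, BAD with BIK and BIK with BMF. In the DNMT3A libraries MCL1 (56.6 FPKM) came within the range of BCL2L1 (60.7 FPKM) and was above it in 1 of 4 libraries, and BCL2L2 (12.2 FPKM) moved above BID (6.13 FPKM) in all 4. BCL2L1 exceeded 94.9% of all tested genes in the controls, MCL1 91.8%, BOK 87.1%, BAK1 71.3%, BCL2L2 51.8% and BMF 19.0%.

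Summed over the pro-survival genes, the level was 100.1 to 110 FPKM in controls, against 118 to 138 FPKM in DNMT3A libraries. BCL2L1 made up 52.0% to 60.8% of that sum in the controls and 41.7% to 51.0% in the DNMT3A libraries, MCL1 32.8% to 41.8% and 39.9% to 48.2%, and BCL2L2 6.22% to 6.57% and 9.06% to 10.1%. The sum of BAK1 and BOK was 39.5 ± 3.38 FPKM and 39.7 ± 1.86 FPKM (SD, n = 4), while the share of BAK1 in it was 30.6% to 34.9% in the controls and 37.1% to 40.2% in the DNMT3A libraries. The 5 BH3-only genes summed to 18.9 ± 0.682 and 18.8 ± 1.18 FPKM (SD, n = 4). The ratio of pro-survival to effector FPKM was 2.57, 2.88, 2.52 and 2.61 in control libraries 1 to 4 and 3.35, 3.27, 3.30 and 3.11 in DNMT3A libraries 1 to 4. This effector sum leaves out BAX, which was about as abundant as BOK; with BAX added the ratios were 1.61, 1.70, 1.59 and 1.63 in the controls and 1.99, 1.82, 1.87 and 1.92 with DNMT3A. These sums were formed from genes whose changes were known, so they are given without a test, and they describe RNA and not protein.

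**Figure D5:**
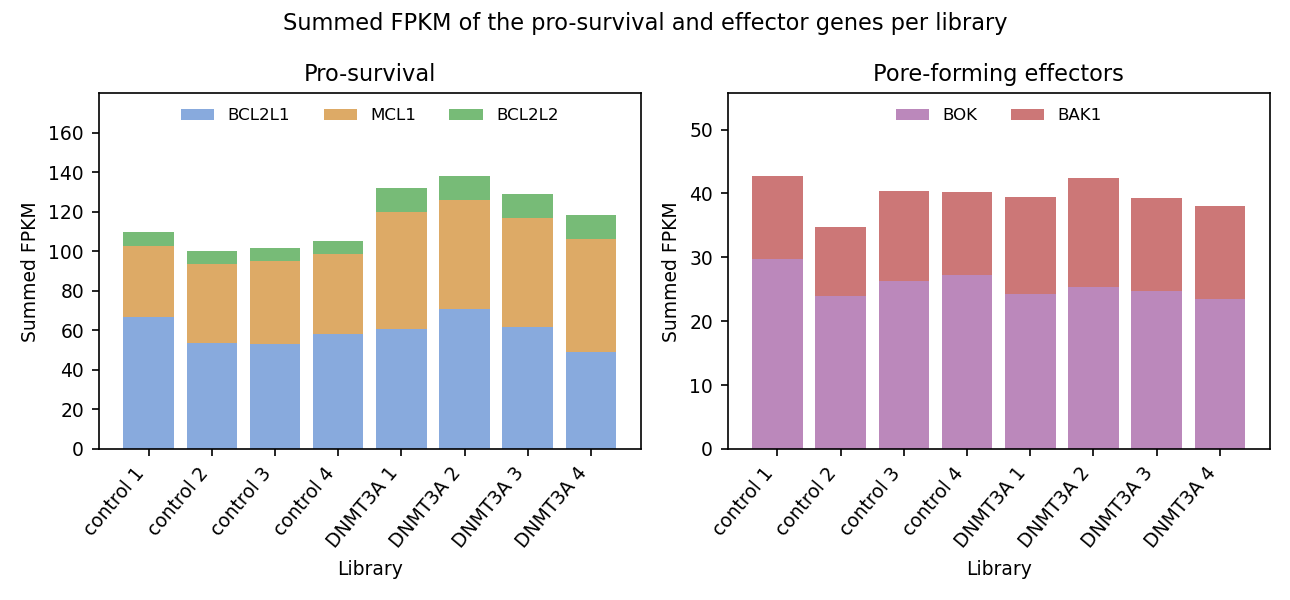
Summed FPKM of the pro-survival genes (left) and of BOK and BAK1 (right) in each of the 8 libraries, stacked by gene. The pro-survival sum is 100.1 to 110 FPKM in controls, against 118 to 138 FPKM in DNMT3A libraries, while the effector sums overlap.

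The protein-coding genes whose profile over the 8 libraries was most like that of BCL2L2 were STOM, ABHD4 and KHNYN. Likeness was measured as the root mean square difference of deviations from the control mean in log2 units, which was 0.0388, 0.0679 and 0.0693. ABHD4 and KHNYN lie in the chromosome 14 block, and STOM, which encodes stomatin, lies on chromosome 9; it went from 14.3 to 25.1 FPKM. Most like MCL1 were SLC41A1 (0.0433), ZNF37A (0.0447) and MICB (0.0579), from chromosomes 1, 10 and 6. Of these MICB, a stress-induced ligand of natural killer cells, went from 9.04 to 13.5 FPKM.

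Of 13 further genes of the BCL2 family 7 were tested, of which 1 rose and 0 fell, with a median log2 difference of 0.08. That is 14.3% called, against 20.6% of all tested genes. BBC3, the p53 target that encodes the BH3-only protein PUMA, rose from 2.69 ± 0.227 to 3.79 ± 0.392 FPKM (SD, n = 4; log2 0.38, limma adjusted p = 0.00985). BAX, the effector that works beside BAK, was at 24.4 ± 0.724 and 28.4 ± 4.23 FPKM (SD, n = 4; log2 0.20, limma adjusted p = 0.157), and it passed without DNMT3A library 4 (0.0283) and with array weights (0.0217). BCL2 itself, the founding member, had 16 to 35 reads per library and a mean of 0.131 FPKM in controls, against 0.1304 FPKM in DNMT3A libraries; BCL2A1, BCL2L10, BCL2L14, BCL2L15 and HRK were also under the filter.

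Death receptor signalling lies above BID, and there 3 of 11 tested genes rose, 3 fell and 5 did not pass (54.5% called, against 20.6% of all tested genes; median log2 0.04). TNFRSF10B, a receptor of the death ligand TRAIL and a p53 target, rose from 28.1 ± 2.08 to 44.7 ± 1.60 FPKM (SD, n = 4; log2 0.66, limma adjusted p = 0.000207). CASP8, the protease that cleaves BID, fell from 9.96 ± 0.357 to 7.90 ± 0.368 FPKM (SD, n = 4; log2 -0.30, limma adjusted p = 0.00482). TNFRSF10A (log2 0.27) and CASP10 (0.27) rose and the adaptor TRADD (-0.29) and RIPK1 (-0.19) fell, with limma adjusted p of 0.0243 to 0.0462. CASP10 and RIPK1 were chosen after their values were seen. Each of these 4 calls was lost without some single library: TNFRSF10A without control 1, 2 or 4 or DNMT3A 1, 2 or 3, CASP10 without control 1, 2 or 3 or DNMT3A 1 or 3, TRADD without any library but control 3, and RIPK1 without control 1, 2 or 3 or DNMT3A 1, 2 or 3. Their adjusted p without 1 library reached 0.115, 0.0699, 0.113 and 0.134, and without a filter on low genes none of the 4 passed (0.0638 to 0.123).

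Downstream of the membrane, 1 of 7 tested genes of the apoptosome and caspases rose and 0 fell (14.3% called, against 20.6% of all tested genes). It was APAF1, the scaffold that cytochrome c activates, which rose from 3.09 ± 0.363 to 5.02 ± 0.569 FPKM (SD, n = 4, log2 0.56, limma adjusted p = 0.00304). Of 8 tested IAP proteins and mitochondrial antagonists 1 rose and 1 fell. ENDOG, a mitochondrial nuclease, fell from 13.7 ± 2.20 to 8.62 ± 0.262 FPKM (SD, n = 4, log2 -0.60, limma adjusted p = 0.00344). Its call held without each library in turn. The gene that rose was BIRC3 (log2 0.29), which only just passed (limma adjusted p = 0.049986) and whose groups overlapped. Leaving out control 1, 2 or 4, or DNMT3A 1, 3 or 4, ended the call of BIRC3.

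Among genes that act on the members' proteins, 0 of 11 tested genes for turnover of MCL1 and BOK rose and 0 fell. That is 0% called, against 20.6% of all tested genes, with a median log2 of 0.04. Such a list of 11 genes is too short to set its share against that. In 2 of the 11 every DNMT3A library was above every control, and in 0 every one was below. Of 22 tested genes that control BH3-only proteins 4 rose and 3 fell (31.8% called, median log2 -0.05). PIM2, a kinase that phosphorylates BAD, rose from 3.60 ± 0.294 to 6.41 ± 0.439 FPKM (SD, n = 4; log2 0.69, limma adjusted p = 0.000276), and FOXO3, a transcription factor known to drive BCL2L11, rose with a log2 difference of 0.32 (limma adjusted p = 0.0142). The dynein light chains, which tether BIM and BMF, moved in opposite directions: DYNLL1 fell (log2 -0.21, limma adjusted p = 0.0214) and DYNLL2 rose (0.23, limma adjusted p = 0.029); DYNLL1 was chosen after its value was seen. Leaving out control library 1, 2 or 3, or DNMT3A library 1, ended both calls, and that of DYNLL2 also without DNMT3A library 3 (up to 0.0672 and 0.0815). With quantile normalization DYNLL1 had a log2 of -0.13 (limma adjusted p = 0.0671), and without a filter DYNLL2 did not pass (0.0596). YWHAH, a 14-3-3 protein of the family that binds phosphorylated BAD, fell by 0.30 on the log2 scale (limma adjusted p = 0.0183), and leaving out control 2, control 3 or DNMT3A 1 ended its call (up to 0.0556), as did quantile normalization (0.0678) and testing without a filter (0.0516).

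Of 9 tested mitochondrial membrane partners 0 rose and 2 fell (22.2% called, against 20.6% of all tested genes). MTCH2, a receptor for truncated BID, fell from 55.3 ± 2.81 to 45.6 ± 1.996 FPKM (SD, n = 4; log2 -0.27, limma adjusted p = 0.00977). VDAC3, a porin, fell by 0.26 on the log2 scale (limma adjusted p = 0.0232) and leaving out control 1, 2 or 3, or DNMT3A 1, ended its call (up to 0.0668), as did testing without a filter (0.0548). Over these lists together 10 of 75 tested genes rose and 9 fell, 25.3% against 20.6% of all tested genes, and 8 of the 19 calls (5 higher and 3 lower) held without each library in turn. Leaving out control 1, control 2, DNMT3A 1 or DNMT3A 3 left 5 higher, and leaving out control 1, 2 or 3, or DNMT3A 1, left 4 or 5 lower.

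RefSeq promoter records (GRCh38.p14; 250 bases before to 50 after each start) matched 7 of the 10 members; BCL2L2, MCL1 and BIK had none. CG dinucleotides, the sites that DNA methyltransferases modify, numbered 39 in the 300 bases of BCL2L11, 21 to 24 over the 2 starts of BAD, 22 for BOK, 16 to 20 over the 2 starts of BCL2L1 and 7 for BAK1. BID (6 to 37 over 5 starts) and BMF (1 and 31 at its 2 starts) differed widely between their own starts. The median over all 35116 records was 14, with quartiles of 4 and 28. Methylation was not measured in these libraries, and the table does not say which start was used.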

How the data were processed

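Per the submitters' processing notes, alignment used HISAT2 2.0.5 and the build hg38. No source used here names the counting program or its treatment of overlapping genes. The authors deposited FPKM values, 1 column for each library according to the headers. Multiplied by gene length, 100% of the deposited FPKM above 0 were whole multiples of the value of 1 read (tolerance 0.01), and whole reads were taken from these. The library totals that the FPKM imply were 0.994 to 1.04 times the recovered sums. The median-ratio factor of the deposited values was 1.01 in every library, so they already lay on a common median-ratio scale. No source used here names the scaling. Genes with a mean of at least 1 FPKM were compared as log2(FPKM + 1) with limma 3.58.1 in R 4.3.3 (intensity trend, adjusted p threshold 0.05); voom on the recovered reads called 2727 genes. Named beyond the members were, by rule, up to 4 called and 2 other genes per list, neighbours, exon-sharing genes and the most alike genes; which allowed genes are described was chosen while writing. Members and lists were chosen with earlier results of these data known. Chi-square per degree of freedom was at least 4.26 between any 2 libraries, so none was a duplicate. Labels do not say whether libraries were separate cultures, so p-values measure only how these libraries vary, possibly for technical reasons.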

Additional observations from a re-analysis of the deposited data

Results flagged for a closer look

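None of the 10 members had a library standing apart from the other 3 of its group by Dixon's test for 4 values. Among 96 groups checked over 48 named genes 7 did, and chance flags about 1 in 20. ABHD4 was low in control library 2 (6.87 FPKM, others 7.68 to 7.81) and high in DNMT3A library 2 (15.1 FPKM, others 13.7 to 13.9). PABPN1, the neighbour of BCL2L2, was high in DNMT3A library 2 (21.8 FPKM, others 16.3 to 17.2), and TRADD was low there (2.13 FPKM, others 2.66 to 2.69). DYNLL1 was low in control library 4 (50.2 FPKM, others 53.5 to 53.9). RIPK1 was high in DNMT3A library 4 (6.16 FPKM, others 5.63 to 5.72), and TNFRSF10A in control library 3 (3.51 FPKM, others 2.98 to 3.03).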

How the results depend on the processing

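BCL2L2 kept its direction and its call under the 17 alternatives that include it (log2 0.76 to 0.87, limma adjusted p 7.53e-07 to 0.00101), and MCL1 under 18 (log2 0.46 to 0.56, limma adjusted p 4.7e-05 to 0.0061). Calls over all tested genes rose to 3756 with array weights (1825 higher, 1931 lower), which also called 2 members lower. Without a filter 786 genes were lower, and the pathway lists had 6 higher and 5 lower; with quantile normalization they had 5 lower. Without the chromosome 14 block 1 member was higher. BCL2L1 had a log2 of -0.015 without DNMT3A library 2, and BCL2L11 one of -0.0080 with array weights. With 1 library left out the counts were 1508 (without control 3; 1551 without control 2) to 2443 (769 to 1195 higher, 739 to 1248 lower), and in the lists 5 to 12 higher and 4 to 9 lower. The causes were not tested. The deposited values had the same median-ratio factor, 1.01, in all libraries, so that scaling left every count of calls as it was; rescaling to read totals, chosen after seeing the data, gave 2349 calls (56.1% higher, against 48.3%) and 13 higher and 7 lower in the lists. The replicate number as a block left 1881 calls, with 6 higher in the lists. It did not call TNFRSF10A (limma adjusted p = 0.07), TRADD (0.0829), RIPK1 (0.112) or DYNLL2 (0.0793). Deviations of same-numbered libraries correlated at -0.08 to 0.16, and not every library correlated best with its own number. Deviations from a group mean are tied to each other, so these values cannot decide whether the numbers mark pairs. The main test did not take the numbers as pairs. Of the members BIK (18 to 58 reads per library) and BAD (51 to 127) had the fewest reads. Their control SD was 38.4% and 27.0% of the mean, against 15.9% and 11.7% from counting. Whether depth limits their results was not tested.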
